A study of Gallus gallus with 6 samples.

Results

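The resting phase of the feather cycle was set against the late growth phase in papilla ectoderm, the epidermal sheet that covers the dermal papilla at the base of the follicle. The comparison used 4 of the 6 libraries of the series: 2 from the resting phase, at 10 weeks of regeneration, and 2 from the late growth phase, at 7 weeks. All came from untreated White Leghorn chickens, from regenerated contour feathers, and the labels call the cells epidermal progenitor cells. The sheet was peeled off the dermal papilla on ice in saline without calcium and magnesium that held EDTA, and its RNA was sequenced in bulk. The other 2 libraries, of early growth at 3 weeks, entered the estimate of the spread and the choice of tested genes. Their levels are given only for CCL5, SOCS3 and GPNMB. The 4 libraries were chosen by their labels and not by any measured value. The labels and methods leave unsaid if a phase's 2 libraries were made from separate birds, so p values measure only the spread between these samples, which may be technical. All libraries carry the same batch label, 2018.

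In the growth phase, epidermal progenitors at the follicle base divide and feed the collar, where cells sort into barbs and fill with keratins. In the resting phase the feather is complete, production of new cells stops, and the papilla ectoderm stays behind over the dermal papilla as a reserve from which the next feather starts. Epidermal identity depends on transcription factors such as p63 and the grainyhead family, and exchange between epidermis and dermal papilla runs through secreted FGF, WNT, BMP and hedgehog ligands and their extracellular antagonists.

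Expression was read as TPM, a share of all transcripts that is corrected for transcript length. TPM keep no record of read numbers, so depth is unknown, and a value of 0 can mean that a transcript was below detection. limma was run on log2(TPM + 1) for 13063 genes, those averaging more than 1 TPM across all 6 libraries. Genes listed at 0 or near 0 in 1 phase could pass that filter through the libraries in which they were high. Among them were SHH, GDF7, PDK4 and BCO1, all below 1 TPM in late growth. An adjusted p for such a gene adds no support beyond its values. A gene is said to have risen or fallen in resting papilla ectoderm where its p, adjusted by the Benjamini-Hochberg method over all tested genes, was under 0.05. Papilla ectoderm here names the dissected tissue of a library, with every cell type it held. By that rule 24.7% of the tested genes rose and 23.1% fell, and the median log2 fold change (resting minus late growth) was 0.02. Without the first late growth library 2047 genes rose in place of 3228, without the second 2134 rose and 1873 fell in place of 3013, and without the second resting library 2139 rose. With 2 libraries against 2, values did not overlap between the phases for 79.7% of the tested genes, and an exact permutation test of a single gene cannot go below p = 0.333, so that each call rests on the spread that limma shares across genes. Levels correlated at r = 0.968 between the resting libraries, at 0.986 between the late growth libraries and at 0.74 to 0.747 between the phases, over tested genes, which are not independent of each other.

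The labelled cell type was checked with 12 epidermal keratinocyte markers, among them KRT5, TP63 and EPCAM. Each was present in both phases, and the list held 1.11% and 1.12% of all TPM in resting papilla ectoderm, against 1.3% in both late growth libraries. Of the 12 markers 8 fell and 2 rose, and 5 fell without a filter on low values. Markers of other cell types were a larger share of resting libraries. The 14 smooth muscle markers all rose and held 5.37% and 5.51% of TPM in resting papilla ectoderm, against 0.12% and 0.133% in late growth. Of 12 tested red cell markers 9 rose, with 5.58% and 5.61% against 0.101% and 0.0898% of TPM, and 4 of them, HBBR, HBE1, HBZ and HEMGN, were listed at 0 in late growth. The 17 fibroblast and dermal papilla markers all rose, with 0.263% and 0.266% against 0.0276% and 0.029% of TPM. In bulk RNA, fewer cells of a type and less RNA per cell cannot be told apart. The part of these other cell types in the results that follow was not tested, and their marker values stand beside the groups they move with. Because muscle and red cell transcripts took up a larger share of resting libraries, TPM were also rescaled without them, which moved the median of all tested genes to 0.18, while quantile normalization moved it to −0.12. The share of all calls that were rises was 51.7% on deposited TPM, 61.8% after that rescaling and 44.9% after quantile normalization.

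Gene families were grouped in 4 classes. Families were taken whole, so the secreted class also counts members that stay inside cells, such as CSTA, CSTB, SERPINH1, FGF12 and FGF14. The epithelial class likewise counts genes that other cell types express, such as GJC1 and CD34, and which cells gave its rises was not tested. Of 351 tested transcription factors (541 in the file) 143 rose and 75 fell, with a median log2 fold change of 0.48. Of 206 tested secreted factors (334 in the file) 103 rose and 38 fell, with a median of 0.95. Metabolic genes went the other way, with 85 rises and 185 falls among 428 tested (478 in the file) and a median of −0.31. So did epithelial genes, with 35 rises and 70 falls among 146 tested (201 in the file) and a median of −0.46. Rises thus made up 40.7% of the transcription factors, 50% of the secreted factors, 19.9% of the metabolic genes and 24% of the epithelial genes, beside 24.7% of all tested genes. Falls made up 21.4%, 18.4%, 43.2% and 47.9% of the same classes, beside 23.1% of all. Without the second late growth library 23 secreted factors fell in place of 38.

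**Figure D1:**
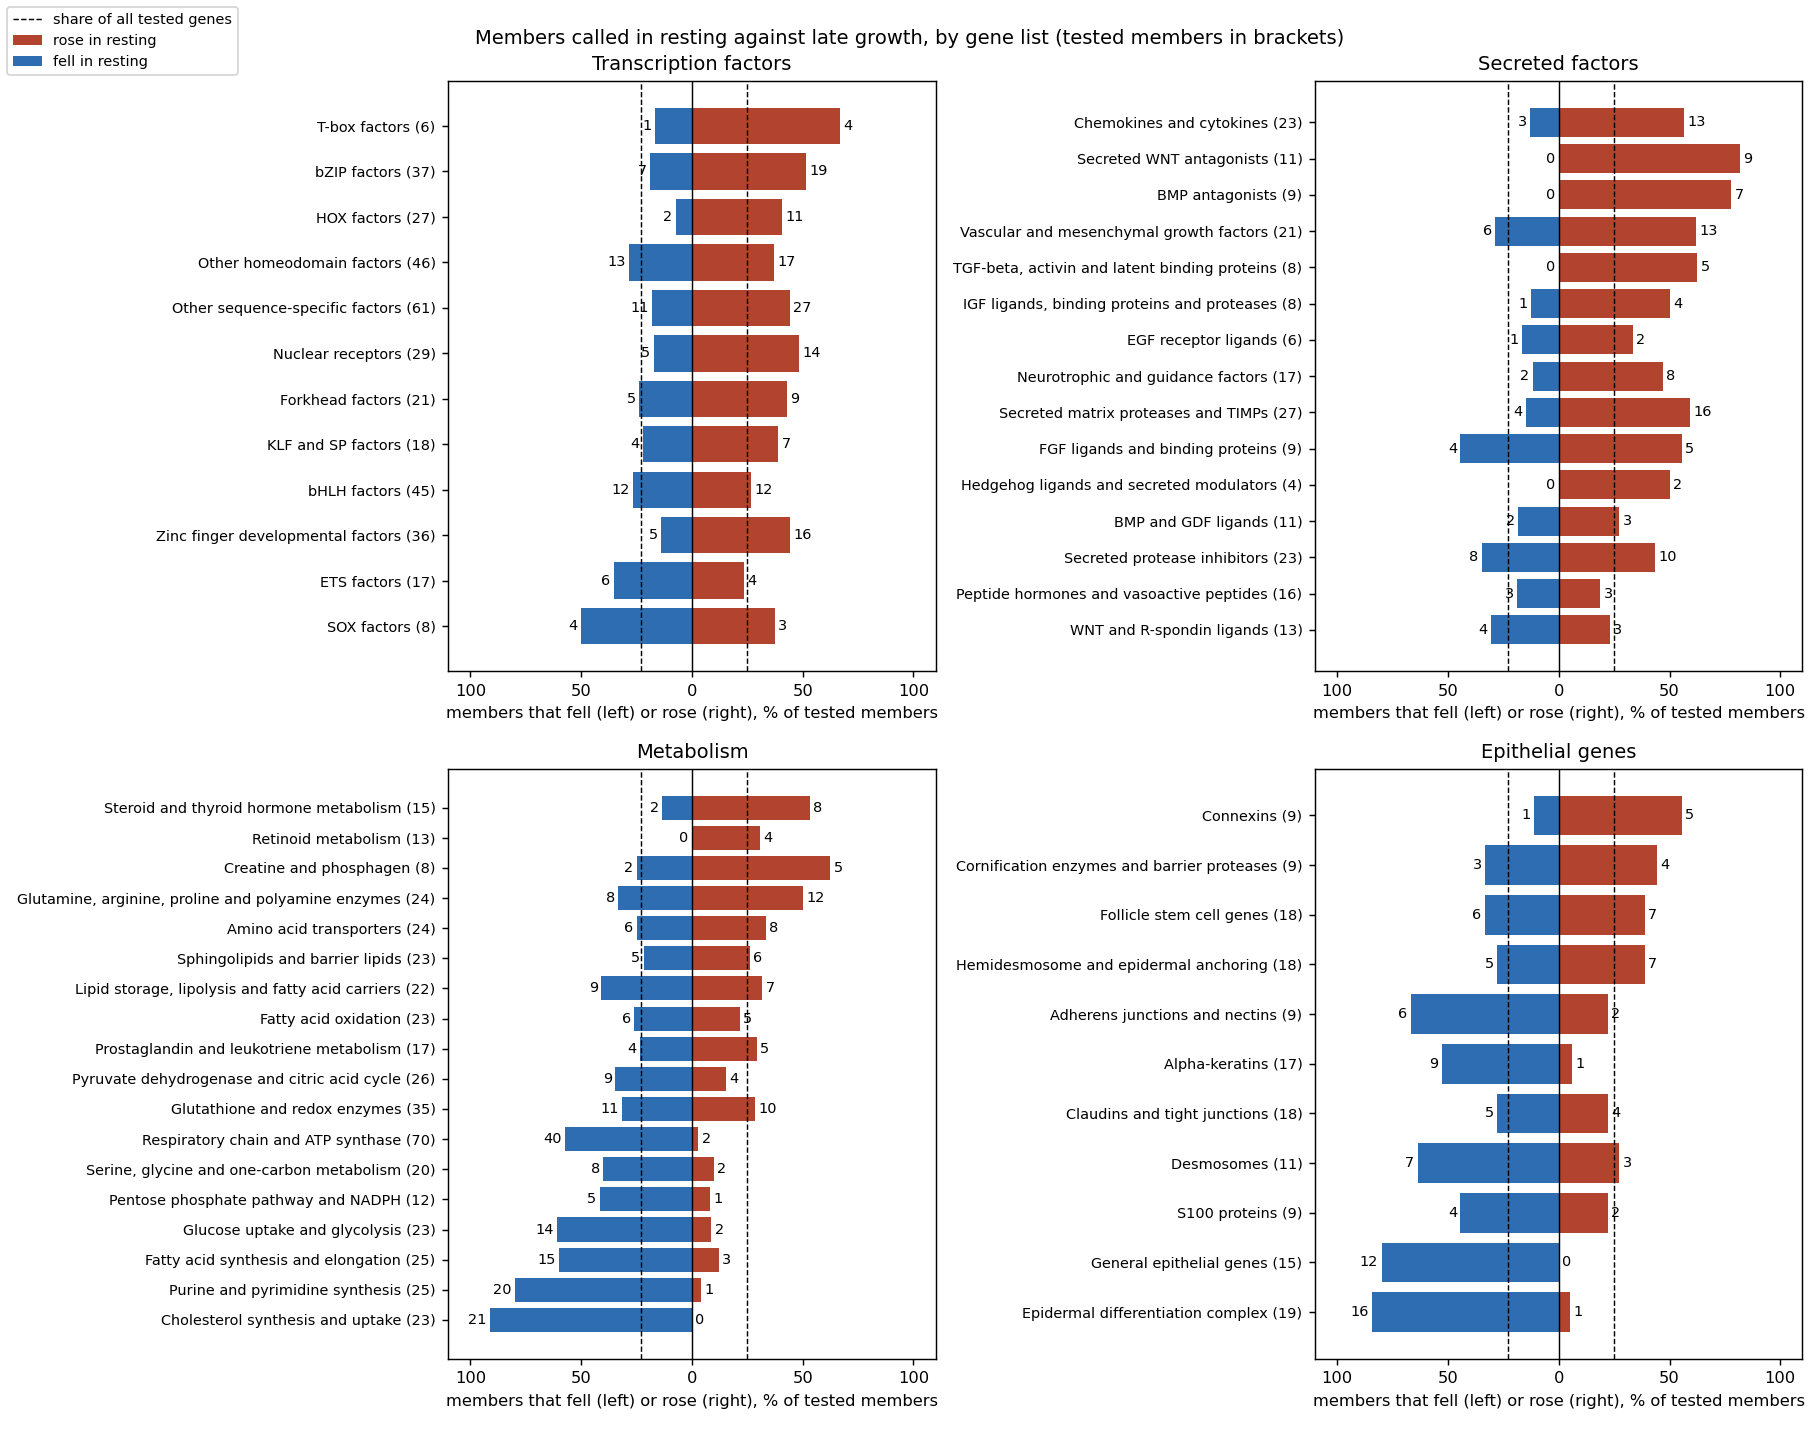
Share of the tested members of each list in the 4 classes (marker lists of other cell types are not drawn) that rose (right of 0) or fell (left of 0) in resting papilla ectoderm relative to late growth, in % of tested members, with the number of members at the end of each bar and lists of at least 4 tested members ordered by median log2 fold change. Dashed lines mark the shares over all tested genes, 24.7% for rises and 23.1% for falls. Cholesterol synthesis (21 of 23 fell) and the epidermal differentiation complex (16 of 19 fell) reach furthest to the left, and secreted WNT antagonists (9 of 11 rose) furthest to the right.

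Of the transcription factors that act in epithelium, BARX2, GRHL1, TP63, ETV4 and SOX21 fell, whereas KLF5 did not pass and PRDM1 rose. BARX2, a homeodomain factor that takes part in hair follicle remodelling in mice, was the most abundant homeodomain factor over the 4 libraries. The level of BARX2 was 119 and 107 TPM in resting and 2100.2 and 2175 TPM in late growth libraries (log2 fold change −4.23 ± 0.064, adjusted p = 1.47e-06). Grainyhead-like GRHL1, which controls desmosomal cadherin genes in mouse epidermis, was near 1 TPM or lower in the resting libraries. For GRHL1 the libraries gave 0.451 and 1.25 TPM in the resting phase, against 50.6 and 52.9 TPM in the late growth phase (log2 fold change −4.87 ± 0.33, adjusted p = 1.13e-04). TP63, the master regulator of stratified epithelium, stayed abundant in both phases. TP63 had 216 and 216 TPM in resting papilla ectoderm, against 474 and 499 TPM in late growth (log2 fold change −1.17 ± 0.062, adjusted p = 4.74e-05). ETV4, an ETS factor induced by FGF signalling, followed the same direction. ETV4 stood at 10.3 and 11.2 TPM in resting and 38 and 42.6 TPM in late growth libraries (log2 fold change −1.81 ± 0.13, adjusted p = 1.40e-04). SOX21, known for its role in the hair shaft cuticle of mice, had 30.8 and 34.4 TPM in the resting phase, against 124 and 121 TPM in the late growth phase (log2 fold change −1.88 ± 0.095, adjusted p = 4.02e-05). In each of these 5 genes the spread between replicates was far smaller than the difference. Their values did not overlap between the phases, which held for 79.7% of all tested genes.

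Further falls came from other families. FOXC1, a forkhead factor of hair follicle stem cells and of mesoderm, had 1.81 and 3.56 TPM in resting and 35.3 and 28.6 TPM in late growth libraries (log2 fold change −3.19 ± 0.27, adjusted p = 2.60e-04). KLF8 had 5.05 and 5.45 TPM in resting papilla ectoderm, against 27.2 and 29.6 TPM in late growth (log2 fold change −2.23 ± 0.28, adjusted p = 0.00118). HOXA5, a positional factor, was among only 2 HOX genes that fell. HOXA5 had 42.6 and 57.9 TPM in the resting phase, against 107 and 104 TPM in the late growth phase (log2 fold change −1.07 ± 0.15, adjusted p = 0.00219). The activating transcription factor ATF4, which drives amino acid supply genes, and ID2, an inhibitor of basic helix-loop-helix factors, were high in both phases and fell by smaller amounts. ATF4 stood at 753 and 739.7 TPM in resting papilla ectoderm, against 1098 and 1136 TPM in late growth (log2 fold change −0.58 ± 0.055, adjusted p = 4.15e-04). The level of ID2 was 368 and 408 TPM in resting and 543 and 528 TPM in late growth libraries (log2 fold change −0.47 ± 0.069, adjusted p = 0.00247). KLF5, a factor of basal keratinocytes, had 119 and 119 TPM in the resting phase, against 139 and 146 TPM in the late growth phase and did not pass (log2 fold change −0.26 ± 0.15, adjusted p = 0.206). It passed at an adjusted p of 0.0285 without the first early growth library and of 0.0266 without the second.

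The largest rises among transcription factors were in genes known from mesenchyme. PRRX1 and PRRX2, paired-related homeodomain factors of limb and dermal mesenchyme, were near 0 in late growth. PRRX1 stood at 224 and 238 TPM in resting and 2.11 and 1.69 TPM in late growth libraries (log2 fold change 6.32 ± 0.14, adjusted p = 3.29e-06). The level of PRRX2 was 146 and 153 TPM in the resting phase, against 0.436 and 0.179 TPM in the late growth phase (log2 fold change 6.85 ± 0.21, adjusted p = 8.38e-06). The TWIST factors, which specify mesenchyme and oppose epithelial adhesion, rose together. For TWIST1 the libraries gave 68.9 and 66.2 TPM in resting papilla ectoderm, against 0.34 and 0.956 TPM in late growth (log2 fold change 5.40 ± 0.29, adjusted p = 4.97e-05). TWIST2, the dermal member, had 128 and 95.4 TPM in resting and 0.688 and 1.03 TPM in late growth libraries (log2 fold change 5.91 ± 0.20, adjusted p = 1.14e-05), and TWIST3, a paralogue kept in birds, had 15.5 and 15.6 TPM in resting papilla ectoderm, against 0 and 0.161 TPM in late growth (log2 fold change 3.94 ± 0.27, adjusted p = 1.19e-04). ZEB1 and ZEB2 repress CDH1 in many cell types. ZEB1 had 48.4 and 40.6 TPM in the resting phase, against 0.872 and 0.894 TPM in the late growth phase (log2 fold change 4.59 ± 0.22, adjusted p = 3.31e-05). ZEB2 stood at 132 and 144 TPM in resting papilla ectoderm, against 1.93 and 2.78 TPM in late growth (log2 fold change 5.38 ± 0.20, adjusted p = 1.36e-05). TWIST1, TWIST2 and PRRX1 are themselves among the 17 fibroblast markers, all of which rose, and none of those 17 was listed at 0 in either phase.

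TBX15, a T-box factor of dorsal dermis, OSR1, a zinc finger factor of connective tissue progenitors, and EMX2, a homeodomain factor of limb and skin patterning, moved the same way. The level of TBX15 was 32.1 and 38.4 TPM in resting and 0.547 and 0.228 TPM in late growth libraries (log2 fold change 4.71 ± 0.24, adjusted p = 4.29e-05). For OSR1 the libraries gave 33.7 and 60 TPM in the resting phase, against 0.254 and 0.38 TPM in the late growth phase (log2 fold change 5.13 ± 0.32, adjusted p = 8.46e-05). EMX2 had 72.8 and 60.1 TPM in resting papilla ectoderm, against 2.05 and 2.93 TPM in late growth (log2 fold change 4.28 ± 0.23, adjusted p = 4.71e-05). OSR1 differed between the resting libraries, yet both lay far above late growth. MYOCD, the coactivator that switches on smooth muscle genes, and MEF2C, a partner factor of muscle, rose beside the 14 smooth muscle markers. MYOCD stood at 88.8 and 97 TPM in resting and 0.394 and 0.687 TPM in late growth libraries (log2 fold change 5.93 ± 0.22, adjusted p = 1.46e-05). The level of MEF2C was 18.1 and 20.5 TPM in the resting phase, against 0.791 and 0.81 TPM in the late growth phase (log2 fold change 3.49 ± 0.24, adjusted p = 1.23e-04). IRX4, an Iroquois homeodomain factor, was low in both late growth libraries. For IRX4 the libraries gave 74.5 and 84.5 TPM in resting papilla ectoderm, against 1.9 and 1.3 TPM in late growth (log2 fold change 4.96 ± 0.35, adjusted p = 1.40e-04).

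HOX genes hold the record of body position in skin. Of 27 tested HOX genes 11 rose, 2 fell and 14 did not pass, with a median of 0.61. Rises were 40.7% and falls 7.41% of the list, beside 24.7% and 23.1% of all tested genes. HOXC10, a gene of the posterior trunk, had the largest rise. HOXC10 had 39.9 and 39.5 TPM in resting and 0.703 and 0 TPM in late growth libraries (log2 fold change 4.96 ± 0.32, adjusted p = 1.00e-04). HOXB6 had 21.5 and 18.4 TPM in the resting phase, against 1.43 and 0.626 TPM in the late growth phase (log2 fold change 3.39 ± 0.29, adjusted p = 2.94e-04), and HOXB5 had 25.2 and 28.6 TPM in resting and 6.31 and 6.79 TPM in late growth libraries (log2 fold change 1.89 ± 0.18, adjusted p = 3.91e-04). HOXC9 reached 11.2 and 11.7 TPM in resting papilla ectoderm and was listed at 0 in both late growth libraries (adjusted p = 1.61e-04). The 14 HOX genes that did not pass include HOXC13, a regulator of hair and feather keratin genes.

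SOX factors divided by gene. SOX18, a factor of vascular endothelium, and SOX10, of neural crest and its glial and pigment derivatives, were higher in resting. For SOX18 the libraries gave 48 and 34.9 TPM in the resting phase, against 2.87 and 3.17 TPM in the late growth phase (log2 fold change 3.39 ± 0.19, adjusted p = 6.55e-05). SOX10 had 9.99 and 12.7 TPM in resting papilla ectoderm and was listed at 0 in late growth (adjusted p = 2.77e-04). Beside these, 8 of 12 endothelial markers rose (0.0174% and 0.0173% of TPM, against 0.00273% and 0.00361% in late growth, with ROBO4 listed at 0 in late growth), and of 4 tested Schwann cell and neuron markers SOX10 and NEFL rose, both listed at 0 in late growth, while ERBB3 and TUBB3 fell. That list held 0.00475% and 0.00481% of TPM, against 0.0038% and 0.00363% in late growth. Without either resting library 5 endothelial markers rose, and only 1 Schwann cell and neuron marker fell without either late growth library or the first resting library. KLF2, which endothelium and quiescent lymphocytes express, followed SOX18. The level of KLF2 was 164 and 167 TPM in the resting phase, against 12 and 14.3 TPM in the late growth phase (log2 fold change 3.56 ± 0.15, adjusted p = 1.96e-05). SOX9, a factor of hair follicle stem cells in mice, fell. For SOX9 the libraries gave 28.7 and 22.8 TPM in resting papilla ectoderm, against 87.9 and 79.2 TPM in late growth (log2 fold change −1.67 ± 0.14, adjusted p = 2.45e-04).

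Nuclear receptors carry hormone signals to the genome, and 14 of 29 tested members rose while 5 fell. Rises were 48.3% and falls 17.2% of the list, beside 24.7% and 23.1% of all tested genes. THRB, a thyroid hormone receptor, had the largest change. THRB had 71 and 75.7 TPM in resting and 2.74 and 3.98 TPM in late growth libraries (log2 fold change 4.11 ± 0.23, adjusted p = 6.23e-05). PPARA, the fatty acid sensor that induces fat burning, rose, and PPARG, the adipogenic member, fell. PPARA stood at 14.3 and 13.4 TPM in the resting phase, against 1.29 and 1.39 TPM in the late growth phase (log2 fold change 2.67 ± 0.26, adjusted p = 4.44e-04). The level of PPARG was 1.52 and 2.03 TPM in resting papilla ectoderm, against 10.9 and 10.4 TPM in late growth (log2 fold change −2.07 ± 0.22, adjusted p = 6.44e-04). Without the first resting library 9 nuclear receptors rose, and 3 fell when either late growth library or the second resting library was left out. A filter at a mean of 5 TPM left 9 rises and 3 falls.

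Of 37 tested bZIP factors 19 rose and 7 fell, which was 51.4% and 18.9%, beside 24.7% and 23.1% of all tested genes. FOS and JUN, partners in the AP-1 complex and immediate early genes that respond within minutes to stress and growth signals, were the most abundant of those that rose. For FOS the libraries gave 991 and 1020.3 TPM in resting and 87 and 85.7 TPM in late growth libraries (log2 fold change 3.53 ± 0.087, adjusted p = 4.27e-06). JUN had 467 and 448 TPM in the resting phase, against 119 and 118 TPM in the late growth phase (log2 fold change 1.94 ± 0.12, adjusted p = 9.20e-05). ATF3, induced by stress, and MAFF, a small MAF protein, had changes of similar direction. ATF3 stood at 230.0 and 255 TPM in resting papilla ectoderm, against 29.1 and 29.8 TPM in late growth (log2 fold change 3.00 ± 0.18, adjusted p = 7.72e-05). The level of MAFF was 74.8 and 77.5 TPM in resting and 16 and 18.7 TPM in late growth libraries (log2 fold change 2.08 ± 0.13, adjusted p = 8.86e-05). EGR1, an immediate early gene of the zinc finger class, did not pass. For EGR1 the libraries gave 340.5 and 331 TPM in the resting phase, against 348 and 354 TPM in the late growth phase (log2 fold change −0.06 ± 0.084, adjusted p = 0.573). Without the first late growth library 12 bZIP factors rose in place of 19.

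PRDM1 (BLIMP1), a repressor found in sebaceous and terminally differentiating epidermal cells of mice, HES1, an effector of NOTCH, and KLF15, a glucocorticoid-responsive metabolic factor, rose as well. They are in none of the marker lists used here, and which cells made them was not tested. PRDM1 had 36.3 and 48.9 TPM in resting papilla ectoderm, against 2.28 and 2.48 TPM in late growth (log2 fold change 3.67 ± 0.32, adjusted p = 2.95e-04). HES1 stood at 39.9 and 35.8 TPM in resting and 4.2 and 2.58 TPM in late growth libraries (log2 fold change 3.17 ± 0.24, adjusted p = 1.68e-04). The level of KLF15 was 16.8 and 15.2 TPM in the resting phase, against 0.133 and 0.442 TPM in the late growth phase (log2 fold change 3.73 ± 0.29, adjusted p = 1.95e-04). All 3 were below 5 TPM in both late growth libraries.

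**Figure D2:**
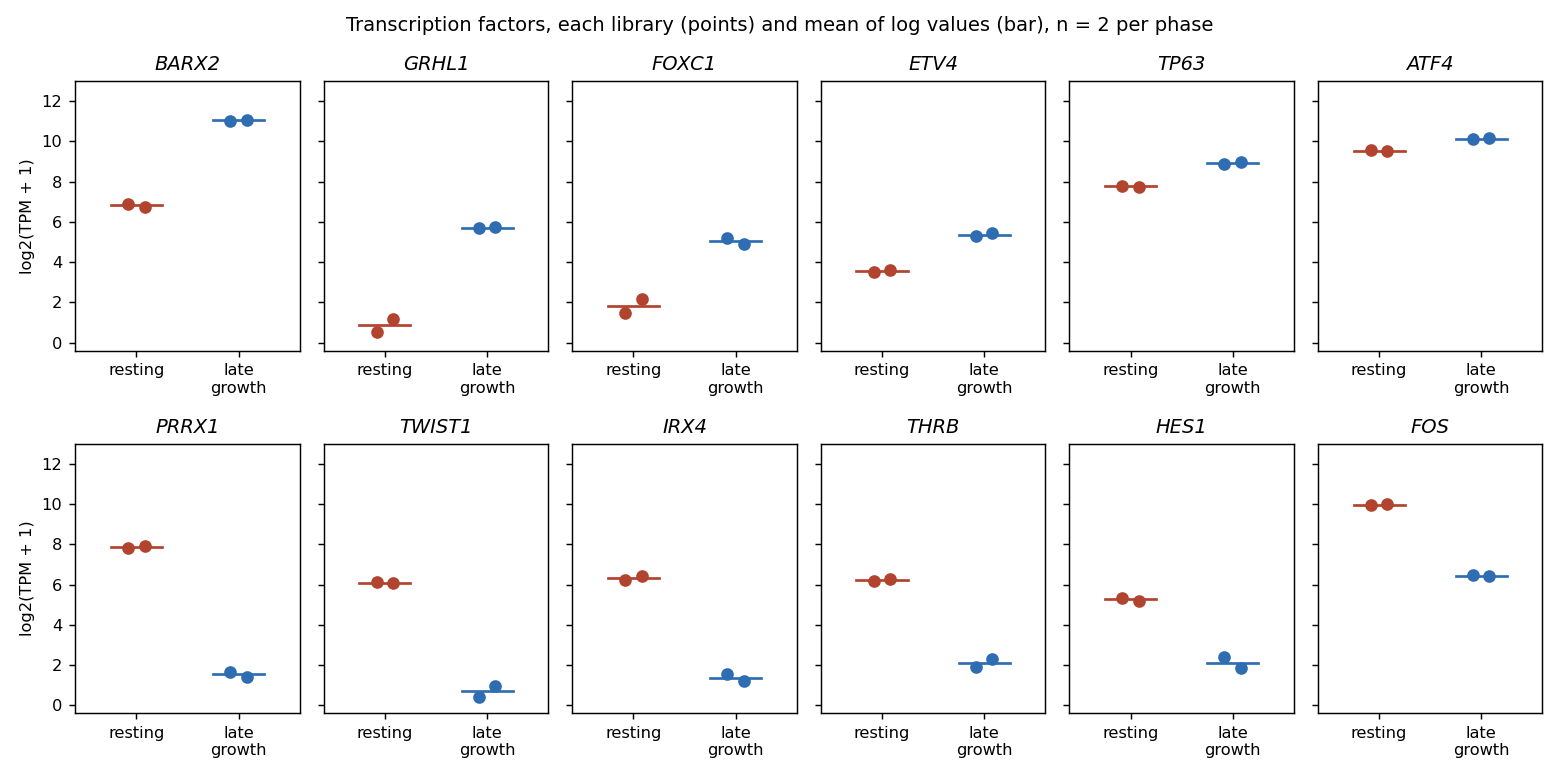
Levels of 12 transcription factors as log2(TPM + 1) in the 2 resting libraries (left in each panel) and the 2 late growth libraries (right). Points are libraries and bars are means of the log values. The upper row holds factors that fell in resting (BARX2, 119 and 107 TPM against 2100.2 and 2175 TPM) and the lower row factors that rose (PRRX1, 224 and 238 TPM against 2.11 and 1.69 TPM).

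Among secreted factors, the rises of WNT antagonists, BMP4, FGF7, IGF2, MMP2, TIMP2, TIMP3 and SERPINF1 stood beside those of the 17 fibroblast and dermal papilla markers (0.263% and 0.266% of TPM in resting, against 0.0276% and 0.029% in late growth), whose part in them was not tested. In the FGF system both binding proteins fell and the ligands moved both ways. Rises were 55.6% and falls 44.4% of the 9 tested members, beside 24.7% and 23.1% of all tested genes. FGFBP1 releases FGFs that are bound to matrix and so increases their activity. For FGFBP1 the libraries gave 74 and 77.3 TPM in resting papilla ectoderm, against 769 and 776 TPM in late growth (log2 fold change −3.33 ± 0.069, adjusted p = 2.62e-06). FGFBP2 had 18.8 and 8.64 TPM in resting and 134 and 139 TPM in late growth libraries (log2 fold change −3.32 ± 0.66, adjusted p = 0.00801), and its call was lost without either late growth library (adjusted p of 0.0591 without the first and 0.0625 without the second) and without the second resting library (0.0811). FGF7, a ligand that mesenchyme sends to epithelium, rose. The level of FGF7 was 17.6 and 16.5 TPM in resting papilla ectoderm, against 0.515 and 1.14 TPM in late growth (log2 fold change 3.32 ± 0.32, adjusted p = 4.42e-04). FGF18, a ligand that holds hair follicle stem cells at rest in mice, had 48.8 and 45.9 TPM in resting and 2.95 and 1.89 TPM in late growth libraries (log2 fold change 3.84 ± 0.73, adjusted p = 0.00667). The FGF18 call did not pass without the second late growth library (adjusted p = 0.0596), without the first resting library (0.0649) or without the second (0.0618). In all, 5 of the 9 tested members rose and the other 4 fell, a division that shrank to 3 rises and 1 fall without the first late growth library and likewise without the second, and to 1 fall without the second resting library. Without the first resting library 3 rose. A fit without the filter on low values gave 3 rises and 2 falls, with FGFBP2 and FGF18 not called (adjusted p of 0.0769 and 0.0665). Raising the filter to a mean above 5 TPM gave 3 rises. FGF18 was also not called with a pseudocount of 0.1 TPM (adjusted p = 0.0826).

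WNT antagonists were mostly higher in resting papilla ectoderm, and WNT ligands moved both ways. Of 11 tested secreted antagonists 9 rose and none fell, with DKK1 and NOTUM not called. Rises were 81.8% of the list, beside 24.7% of all tested genes. FRZB and the SFRP proteins bind WNT itself. FRZB stood at 91.9 and 80.3 TPM in resting papilla ectoderm, against 3.34 and 3.14 TPM in late growth (log2 fold change 4.36 ± 0.17, adjusted p = 1.64e-05). SOSTDC1, which blocks both WNT and BMP, was the most abundant antagonist in both phases. The level of SOSTDC1 was 844 and 821 TPM in resting and 305 and 305 TPM in late growth libraries (log2 fold change 1.44 ± 0.053, adjusted p = 1.38e-05). DKK2, which binds the LRP coreceptors, had 7.3 and 6.9 TPM in the resting phase, against 0.421 and 0.128 TPM in the late growth phase (log2 fold change 2.68 ± 0.35, adjusted p = 0.00142). Without the second late growth library 6 antagonists rose and none fell. Of 13 tested WNT and R-spondin ligands 3 rose and 4 fell, 23.1% and 30.8%, near the 24.7% and 23.1% of all tested genes. WNT5A, a ligand of the pathway branch without beta-catenin, was higher in resting. WNT5A stood at 50.6 and 40.6 TPM in resting and 14.9 and 16.8 TPM in late growth libraries (log2 fold change 1.46 ± 0.20, adjusted p = 0.00184). WNT4 and WNT10A, ligands that skin epithelium makes, were lower. The level of WNT4 was 17.8 and 15.1 TPM in the resting phase, against 43 and 41.5 TPM in the late growth phase (log2 fold change −1.32 ± 0.14, adjusted p = 7.41e-04). For WNT10A the libraries gave 19.3 and 18.4 TPM in resting papilla ectoderm, against 46.1 and 42.9 TPM in late growth (log2 fold change −1.20 ± 0.12, adjusted p = 6.06e-04). Without the second late growth library 2 ligands fell, and likewise without the first resting library, while 5 rose without either early growth library. With no filter 5 ligands rose and 2 fell, and with a filter at 5 TPM 1 rose.

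BMP ligands give growth arrest and differentiation signals in feather and hair follicles. BMP4, which the dermal side of the follicle makes, BMP3 and GDF7 rose. BMP4 had 71.6 and 72.7 TPM in resting and 3.95 and 3.54 TPM in late growth libraries (log2 fold change 3.95 ± 0.23, adjusted p = 6.70e-05). BMP3 stood at 49 and 41.7 TPM in the resting phase, against 3.64 and 2.53 TPM in the late growth phase (log2 fold change 3.51 ± 0.32, adjusted p = 3.67e-04). The level of GDF7 was 24.5 and 22.7 TPM in resting papilla ectoderm, against 0.174 and 0.195 TPM in late growth (log2 fold change 4.38 ± 0.26, adjusted p = 7.55e-05). BMP2 moved in the opposite direction. For BMP2 the libraries gave 18.4 and 14.6 TPM in resting and 33.3 and 47.5 TPM in late growth libraries (log2 fold change −1.23 ± 0.21, adjusted p = 0.00438). BMP7 did not pass, at 77.1 and 78.1 TPM in the resting phase, against 88.7 and 104 TPM in the late growth phase (log2 fold change −0.30 ± 0.11, adjusted p = 0.069). In all, 3 of 11 tested BMP and GDF ligands rose and 2 fell. These shares, 27.3% and 18.2%, lay near the 24.7% and 23.1% of all tested genes. Of 9 tested BMP antagonists 7 rose, or 77.8%, and none fell, with NOG and FSTL3 not called. The level of NBL1 was 224 and 235 TPM in resting and 30.7 and 30 TPM in late growth libraries (log2 fold change 2.88 ± 0.097, adjusted p = 1.13e-05). For FSTL1 the libraries gave 227 and 229 TPM in the resting phase, against 23.9 and 28.9 TPM in the late growth phase (log2 fold change 3.07 ± 0.11, adjusted p = 1.22e-05). In both antagonists the resting libraries lay several times above late growth. Only 4 antagonists rose when either late growth library or the second resting library was left out, and 5 ligands rose without either early growth library or without the filter on low values. BMP7 passed after median-of-ratios scaling (adjusted p = 0.0344).

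SHH, the hedgehog ligand that barb ridge epithelium uses for branching, was present in the resting libraries alone at more than 1 TPM. SHH had 19.6 and 25.1 TPM in resting papilla ectoderm, against 0 and 0.329 TPM in late growth (log2 fold change 4.33 ± 0.32, adjusted p = 1.54e-04). It passed the filter on mean TPM only through the resting libraries, so its adjusted p adds no support beyond its values. TGFB3 and the activin subunit INHBA, ligands of the SMAD2 and SMAD3 branch, rose. TGFB3 stood at 339 and 330.5 TPM in resting and 66 and 74.1 TPM in late growth libraries (log2 fold change 2.24 ± 0.084, adjusted p = 1.46e-05). The level of INHBA was 32.6 and 28.3 TPM in the resting phase, against 0.607 and 0.36 TPM in the late growth phase (log2 fold change 4.41 ± 0.50, adjusted p = 8.48e-04). No tested member of their list fell, and TGFB1, TGFB2 and INHBB did not pass.

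In the IGF system, IGF2, the fetal growth ligand, and 2 binding proteins rose. For IGF2 the libraries gave 16.6 and 14 TPM in resting papilla ectoderm, against 0.908 and 0.733 TPM in late growth (log2 fold change 3.16 ± 0.26, adjusted p = 2.49e-04). IGFBP4 had 215 and 192 TPM in resting and 27.6 and 24.6 TPM in late growth libraries (log2 fold change 2.91 ± 0.11, adjusted p = 1.41e-05). IGFBP7 stood at 582 and 479.7 TPM in the resting phase, against 104 and 102 TPM in the late growth phase (log2 fold change 2.35 ± 0.14, adjusted p = 7.97e-05). STC1, which blocks the protease that frees IGF from its binding proteins, was close to 1 TPM in late growth. The level of STC1 was 53.1 and 45.8 TPM in resting papilla ectoderm, against 0.767 and 1.16 TPM in late growth (log2 fold change 4.69 ± 0.46, adjusted p = 4.63e-04). IGFBP5 had 11.3 and 12.2 TPM in resting and 24.4 and 22.4 TPM in late growth libraries (log2 fold change −0.94 ± 0.20, adjusted p = 0.00997), a call lost on leaving out any 1 of the 4 libraries (adjusted p from 0.0552 to 0.0754).

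Matricellular CCN proteins divided sharply. CTGF and CYR61, targets of YAP and of mechanical tension, were higher in resting, and NOV, of the same family, was lower. CTGF stood at 154 and 160.2 TPM in resting papilla ectoderm, against 4.37 and 3.9 TPM in late growth (log2 fold change 4.95 ± 0.14, adjusted p = 6.90e-06). The level of CYR61 was 228 and 220.0 TPM in resting and 17.9 and 15.5 TPM in late growth libraries (log2 fold change 3.67 ± 0.12, adjusted p = 1.13e-05). For NOV the libraries gave 19.9 and 22.4 TPM in the resting phase, against 428 and 441 TPM in the late growth phase (log2 fold change −4.30 ± 0.11, adjusted p = 4.27e-06). Midkine (MDK), a heparin-binding growth factor, fell alongside NOV. MDK had 19 and 8.1 TPM in resting papilla ectoderm, against 279 and 269.9 TPM in late growth (log2 fold change −4.35 ± 0.34, adjusted p = 1.88e-04). VEGFD, a lymphatic growth factor, rose. VEGFD stood at 48.8 and 54.5 TPM in resting and 2.25 and 1.02 TPM in late growth libraries (log2 fold change 4.36 ± 0.41, adjusted p = 4.05e-04). SEMA3C and SEMA3E, repulsive guidance cues of the same class, went opposite ways. The level of SEMA3C was 30.7 and 35.5 TPM in the resting phase, against 0.721 and 0.845 TPM in the late growth phase (log2 fold change 4.26 ± 0.32, adjusted p = 1.68e-04). For SEMA3E the libraries gave 0.789 and 0 TPM in resting papilla ectoderm, against 12.8 and 15.1 TPM in late growth (log2 fold change −3.48 ± 0.32, adjusted p = 3.85e-04). Among EGF receptor ligands AREG fell (4.58 and 4.15 TPM in resting and 18.8 and 17.8 TPM in late growth libraries, log2 fold change −1.85 ± 0.21, adjusted p = 8.62e-04) and HBEGF, at 35.2 and 51.8 TPM in resting papilla ectoderm, against 39.6 and 44.3 TPM in late growth, did not pass (log2 fold change 0.03 ± 0.29, adjusted p = 0.952).

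Cytokines and peptides added further contrasts. MIF, a cytokine that many cell types make, fell. MIF had 379 and 419 TPM in the resting phase, against 1309 and 1157 TPM in the late growth phase (log2 fold change −1.62 ± 0.081, adjusted p = 3.94e-05). IL34, the ligand that maintains Langerhans cells, rose. IL34 stood at 60.3 and 58.4 TPM in resting papilla ectoderm, against 6.62 and 3.99 TPM in late growth (log2 fold change 3.29 ± 0.26, adjusted p = 2.12e-04). The chemokine CCL5 had 24.2 and 19.3 TPM in resting papilla ectoderm and was listed at 0 in late growth and in early growth. It therefore passed the filter on mean TPM only through the resting libraries. Beside these, 11 of 12 tested leukocyte markers rose, with 0.0846% and 0.0786% of TPM in resting against 0.00634% and 0.00672% in late growth, and C1QC was listed at 0 in late growth. Between 5 and 6 of them rose when any 1 of the 4 libraries was left out, 5 without the filter and 6 with a filter at a mean of 5 TPM. PENK, the precursor of enkephalins, and EDN3, the endothelin that guides pigment cells, rose. PENK had 309 and 317 TPM in resting papilla ectoderm, against 12.3 and 11.8 TPM in late growth (log2 fold change 4.59 ± 0.075, adjusted p = 1.59e-06). EDN3 stood at 25.6 and 27.3 TPM in resting and 0.821 and 0.851 TPM in late growth libraries (log2 fold change 3.90 ± 0.33, adjusted p = 2.56e-04). CRH, the corticotropin-releasing hormone, was listed at 0 in both resting libraries and had 8.57 and 8.19 TPM in late growth (adjusted p = 5.76e-04).

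Proteases and their inhibitors moved both ways. MMP3, a stromelysin, fell, and MMP10, its close relative, was listed at 0 in both resting libraries and had 11.9 and 13.7 TPM in late growth (adjusted p = 0.00139). The level of MMP3 was 15.5 and 16.7 TPM in resting papilla ectoderm, against 265 and 275 TPM in late growth (log2 fold change −3.98 ± 0.099, adjusted p = 4.27e-06). MMP2, a gelatinase of stroma, rose, as did the inhibitors TIMP2 and TIMP3. For MMP2 the libraries gave 156 and 179 TPM in resting and 5.67 and 6.39 TPM in late growth libraries (log2 fold change 4.58 ± 0.12, adjusted p = 4.76e-06). TIMP2 had 621 and 612 TPM in the resting phase, against 240.5 and 228 TPM in the late growth phase (log2 fold change 1.39 ± 0.059, adjusted p = 2.21e-05). TIMP3 stood at 287 and 307 TPM in resting papilla ectoderm, against 32.4 and 42.1 TPM in late growth (log2 fold change 2.97 ± 0.15, adjusted p = 4.07e-05). Among protease inhibitors, CSTA, a cystatin of cornifying keratinocytes, fell and CST3, the general cystatin, rose. The level of CSTA was 12.2 and 7.9 TPM in resting and 405 and 397 TPM in late growth libraries (log2 fold change −5.21 ± 0.58, adjusted p = 7.85e-04). For CST3 the libraries gave 1057 and 1061 TPM in the resting phase, against 385 and 372 TPM in the late growth phase (log2 fold change 1.48 ± 0.057, adjusted p = 1.56e-05). SERPINF1, an antiangiogenic serpin of stroma, rose as well. SERPINF1 had 172 and 202 TPM in resting papilla ectoderm, against 3.92 and 3.97 TPM in late growth (log2 fold change 5.25 ± 0.14, adjusted p = 5.38e-06). WFDC2L was listed at 0 in both resting libraries, against 17.3 and 13.3 TPM in late growth (adjusted p = 8.19e-05).

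**Figure D3:**
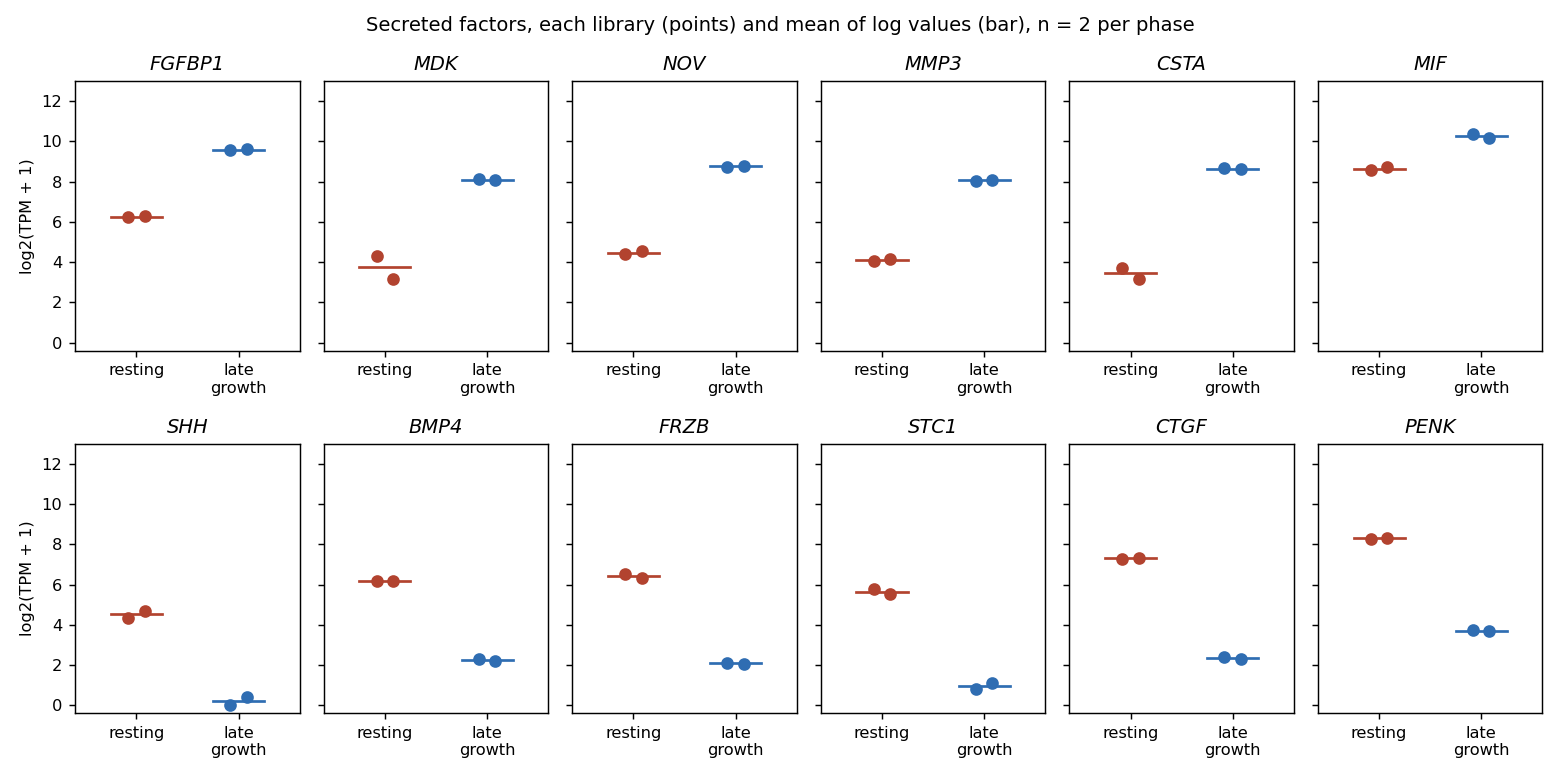
Levels of 12 genes of the secreted factor class, among them the intracellular inhibitor CSTA, as log2(TPM + 1). The 2 resting libraries are left in each panel and the 2 late growth libraries right. Points are libraries and bars are means of the log values. The upper row fell in resting (FGFBP1, 74 and 77.3 TPM against 769 and 776 TPM) and the lower row rose (SHH, 19.6 and 25.1 TPM against 0 and 0.329 TPM).

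Signalling receptors had 21 rises and 14 falls among 52 tested members and a median of 0.49. Rises made up 40.4% of the list, beside 24.7% of all tested genes. The share of falls, 26.9%, lay near the 23.1% of all. The neurotrophin receptors NTRK2 and NTRK3, PDGFRB, itself 1 of the 17 fibroblast markers, and FGFR3, known for its role in bone growth, had the 4 largest changes, all rises. For NTRK2 the libraries gave 24.1 and 26.8 TPM in resting papilla ectoderm, against 0.172 and 0.0969 TPM in late growth (log2 fold change 4.54 ± 0.33, adjusted p = 1.42e-04). NTRK3 had 20.3 and 22.9 TPM in resting and 0.167 and 0.102 TPM in late growth libraries (log2 fold change 4.31 ± 0.23, adjusted p = 4.81e-05). All 4 receptors were below 3 TPM in both late growth libraries. PDGFRB stood at 21.7 and 22.6 TPM in the resting phase, against 0.438 and 0.201 TPM in the late growth phase (log2 fold change 4.14 ± 0.23, adjusted p = 6.15e-05). The level of FGFR3 was 45.5 and 49 TPM in resting papilla ectoderm, against 1.78 and 2.08 TPM in late growth (log2 fold change 4.04 ± 0.20, adjusted p = 3.47e-05). FZD1, a WNT receptor, was the most abundant member. For FZD1 the libraries gave 229 and 224 TPM in resting and 155 and 147 TPM in late growth libraries (log2 fold change 0.58 ± 0.088, adjusted p = 0.00261). Without the second late growth library 9 receptors fell in place of 14.

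Cholesterol synthesis had the highest share of called members among the metabolic lists. Of 23 tested genes of cholesterol synthesis and uptake 21 fell and none rose, with a median log2 fold change of −1.74. Falls were 91.3% of the list, beside 23.1% of all tested genes. FDPS makes farnesyl diphosphate, and NSDHL and CYP51A1 remove methyl groups from lanosterol. FDPS had 32.5 and 25.4 TPM in the resting phase, against 207 and 219 TPM in the late growth phase (log2 fold change −2.85 ± 0.13, adjusted p = 2.91e-05). NSDHL stood at 6.9 and 6.36 TPM in resting papilla ectoderm, against 50.6 and 57 TPM in late growth (log2 fold change −2.84 ± 0.14, adjusted p = 3.71e-05). CYP51A1, the most abundant of these 3 in resting, kept the same direction. The level of CYP51A1 was 49 and 51.2 TPM in resting and 269 and 279 TPM in late growth libraries (log2 fold change −2.43 ± 0.073, adjusted p = 7.51e-06). INSIG1 and PMVK did not pass. Under every alternative run, between 19 and 21 genes of this list fell and none rose.

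Fatty acid genes fell with them, in 15 of 25 tested members against 3 that rose. These were 60% and 12%, beside 23.1% and 24.7% of all tested genes. SCD introduces the double bond of oleate, FADS2 starts the synthesis of polyunsaturated chains, and ELOVL4 makes the very long chains of the skin barrier. For SCD the libraries gave 14.8 and 13.3 TPM in the resting phase, against 78.3 and 91.4 TPM in the late growth phase (log2 fold change −2.51 ± 0.13, adjusted p = 4.55e-05). FADS2 had 64.8 and 53.9 TPM in resting papilla ectoderm, against 208 and 249 TPM in late growth (log2 fold change −1.93 ± 0.13, adjusted p = 1.25e-04). ELOVL4 stood at 2.03 and 1.39 TPM in resting and 25.3 and 27.4 TPM in late growth libraries (log2 fold change −3.34 ± 0.25, adjusted p = 1.64e-04). HACD1, a dehydratase of elongation that muscle expresses, was among the 3 that rose. The level of HACD1 was 14.1 and 12.6 TPM in the resting phase, against 1.83 and 2.28 TPM in the late growth phase (log2 fold change 2.23 ± 0.28, adjusted p = 0.0013). In barrier lipid metabolism the ceramide synthases CERS3 and CERS6 and the lipid transporter ABCA12 fell. For CERS3 the libraries gave 7.66 and 10.9 TPM in resting papilla ectoderm, against 82.7 and 83.6 TPM in late growth (log2 fold change −3.05 ± 0.25, adjusted p = 2.43e-04). CERS6 had 2.64 and 2.25 TPM in resting and 28.2 and 35.2 TPM in late growth libraries (log2 fold change −3.24 ± 0.24, adjusted p = 1.56e-04). ABCA12 stood at 9.45 and 12.1 TPM in the resting phase, against 40.7 and 49.5 TPM in the late growth phase (log2 fold change −1.97 ± 0.18, adjusted p = 3.66e-04). The sphingolipid list had 6 rises and 5 falls among 23 tested, 26.1% and 21.7%, near the 24.7% and 23.1% of all tested genes, with 3 rises without the first late growth library and 8 falls without either early growth library.

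Fatty acid carriers moved both ways. FABP5, the epidermal fatty acid binding protein, was the most abundant of the lipid storage list in late growth. The level of FABP5 was 46.7 and 52.5 TPM in resting papilla ectoderm, against 897 and 913 TPM in late growth (log2 fold change −4.17 ± 0.20, adjusted p = 3.42e-05). APOA1, the main protein of HDL, which many chicken tissues make, and APOD, a lipocalin, rose. For APOA1 the libraries gave 265 and 272 TPM in resting and 3.89 and 2.25 TPM in late growth libraries (log2 fold change 6.08 ± 0.23, adjusted p = 1.41e-05). APOD had 200.2 and 190.0 TPM in the resting phase, against 3.86 and 2.86 TPM in the late growth phase (log2 fold change 5.50 ± 0.65, adjusted p = 9.75e-04). FABP4, an adipocyte carrier, had 50.9 and 57.4 TPM in resting papilla ectoderm and was listed at 0 in late growth (adjusted p = 0.00338). Of the 6 tested adipocyte markers, FABP4 among them, 2 rose and 3 fell, with 0.0916% and 0.0931% of TPM in resting against 0.006% and 0.00627% in late growth, and CIDEA was listed at 0 in resting.

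Nucleotide synthesis fell in 20 of 25 tested genes, with a median of −1.21. That was 80% of the list, beside 23.1% of all tested genes. RRM2, the regulated subunit of ribonucleotide reductase, TYMS, thymidylate synthase, and TK1, thymidine kinase, rise and fall with S phase and had the largest changes. For RRM2 the libraries gave 5.66 and 2.25 TPM in the resting phase, against 183 and 195 TPM in the late growth phase (log2 fold change −5.35 ± 0.32, adjusted p = 7.08e-05). TYMS had 3.71 and 6.41 TPM in resting papilla ectoderm, against 86.3 and 93 TPM in late growth (log2 fold change −3.94 ± 0.24, adjusted p = 8.01e-05). TK1 stood at 2.41 and 8.51 TPM in resting and 139 and 131 TPM in late growth libraries (log2 fold change −4.58 ± 0.45, adjusted p = 4.67e-04). RRM2B, the isoform that supplies nucleotides outside the cycle, was the 1 member that rose, with 18.4 and 19.3 TPM in the resting phase, against 7.73 and 8.08 TPM in the late growth phase (log2 fold change 1.16 ± 0.18, adjusted p = 0.0029). ATIC, which closes the purine ring, is not tied to S phase in this way and fell by less. ATIC had 364 and 409 TPM in resting and 616 and 632 TPM in late growth libraries (log2 fold change −0.69 ± 0.071, adjusted p = 5.74e-04). MTHFD2, a mitochondrial folate enzyme, and AHCY, which clears the product of methylation, fell, and ALDH1L2, which burns mitochondrial folate units, rose. MTHFD2 stood at 14.9 and 11.7 TPM in the resting phase, against 52.5 and 55.1 TPM in the late growth phase (log2 fold change −1.95 ± 0.18, adjusted p = 3.43e-04). The level of AHCY was 109 and 105 TPM in resting papilla ectoderm, against 257 and 268 TPM in late growth (log2 fold change −1.29 ± 0.078, adjusted p = 7.97e-05). For ALDH1L2 the libraries gave 18 and 22.5 TPM in resting and 0.805 and 1.35 TPM in late growth libraries (log2 fold change 3.36 ± 0.28, adjusted p = 2.51e-04).

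Glycolysis fell in 14 of 23 tested genes and rose in 2, with a median of −0.51. These were 60.9% and 8.7%, beside 23.1% and 24.7% of all tested genes. PGK1 makes ATP in the pathway, GAPDH is its dehydrogenase and was the most abundant member, and SLC16A1 carries lactate across the membrane. PGK1 had 259 and 271 TPM in the resting phase, against 979 and 1058 TPM in the late growth phase (log2 fold change −1.94 ± 0.066, adjusted p = 1.13e-05). GAPDH stood at 2559.7 and 2598 TPM in resting papilla ectoderm, against 3696 and 3623 TPM in late growth (log2 fold change −0.51 ± 0.041, adjusted p = 2.18e-04). The level of SLC16A1 was 66 and 69.3 TPM in resting and 203 and 219.8 TPM in late growth libraries (log2 fold change −1.63 ± 0.078, adjusted p = 3.43e-05). ALDOC, the aldolase isoform of brain and of some epithelia, rose. For ALDOC the libraries gave 1536 and 1551 TPM in the resting phase, against 484 and 449.9 TPM in the late growth phase (log2 fold change 1.72 ± 0.061, adjusted p = 1.22e-05). In the pentose phosphate pathway TKT fell. TKT had 102 and 93.4 TPM in resting papilla ectoderm, against 433 and 476 TPM in late growth (log2 fold change −2.21 ± 0.085, adjusted p = 1.56e-05). PDK4, the kinase that shuts pyruvate out of the citric acid cycle in fasted tissue, rose. PDK4 stood at 11.6 and 17.1 TPM in resting and 0.184 and 0.271 TPM in late growth libraries (log2 fold change 3.62 ± 0.36, adjusted p = 4.97e-04).

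Genes of the respiratory chain and ATP synthase made small moves in 1 direction. Of 70 tested members 40 were lower and 2 higher, with a median of −0.36. Falls were 57.1% of the list, beside 23.1% of all tested genes. ATP5G3, a ring subunit of ATP synthase, had the largest fall. The level of ATP5G3 was 189 and 204 TPM in the resting phase, against 693 and 579 TPM in the late growth phase (log2 fold change −1.68 ± 0.097, adjusted p = 6.61e-05). UQCR10, of complex III, had 293 and 252 TPM in resting papilla ectoderm, against 700.4 and 595 TPM in late growth (log2 fold change −1.24 ± 0.12, adjusted p = 3.91e-04), and COX7C, of complex IV, had 748 and 842 TPM in the resting phase, against 960.4 and 818 TPM in the late growth phase and did not pass (log2 fold change −0.16 ± 0.12, adjusted p = 0.312). The count depended on single libraries and on scaling. It was 23 without the first late growth library, 26 without the first resting library, 23 without a filter on low values and 27 on TPM rescaled without muscle and red cell genes, where the median of the list was −0.18 and that of all tested genes 0.18.

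Amino acid handling was divided. SLC7A5, a carrier of large neutral amino acids, and SLC7A3, a carrier of arginine and lysine, fell. For SLC7A5 the libraries gave 48.5 and 55.1 TPM in resting and 285 and 319.5 TPM in late growth libraries (log2 fold change −2.52 ± 0.099, adjusted p = 1.70e-05). SLC7A3 had 134 and 153 TPM in the resting phase, against 475 and 490.2 TPM in the late growth phase (log2 fold change −1.75 ± 0.083, adjusted p = 3.42e-05). SLC38A4, a carrier of small neutral amino acids, had 37.3 and 37.7 TPM in resting papilla ectoderm and was listed at 0 in late growth (adjusted p = 6.76e-05). GLUL, glutamine synthetase, and SAT1, which marks polyamines for export, rose, and OAZ1, the antizyme that restrains polyamine synthesis, fell. For GLUL the libraries gave 75 and 69.4 TPM in the resting phase, against 7.77 and 7.2 TPM in the late growth phase (log2 fold change 3.11 ± 0.15, adjusted p = 3.42e-05). SAT1 had 269 and 264 TPM in resting papilla ectoderm, against 69.1 and 64.2 TPM in late growth (log2 fold change 1.98 ± 0.079, adjusted p = 1.78e-05). OAZ1 stood at 861 and 849 TPM in resting and 1544 and 1545 TPM in late growth libraries (log2 fold change −0.85 ± 0.047, adjusted p = 5.41e-05).

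Redox genes were divided. GPX3, the secreted glutathione peroxidase, had the highest level of the list in the resting phase. The level of GPX3 was 809 and 826 TPM in the resting phase, against 23.3 and 20.6 TPM in the late growth phase (log2 fold change 5.16 ± 0.096, adjusted p = 1.92e-06). SOD3, the secreted superoxide dismutase, had 35 and 31.6 TPM in resting papilla ectoderm and was listed at 0 in late growth (adjusted p = 3.40e-05). TXN, cytosolic thioredoxin, and GSTO1, a glutathione transferase, fell. TXN stood at 430.3 and 449 TPM in the resting phase, against 1365 and 1280.1 TPM in the late growth phase (log2 fold change −1.59 ± 0.092, adjusted p = 6.70e-05). The level of GSTO1 was 38.7 and 43.4 TPM in resting papilla ectoderm, against 223 and 217 TPM in late growth (log2 fold change −2.40 ± 0.093, adjusted p = 1.60e-05). Over the 35 tested members of the list 10 rose and 11 fell, and 6 rose without the first late growth library. The shares, 28.6% and 31.4%, lay near the 24.7% and 23.1% of all tested genes.

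Hormone and retinoid metabolism held the largest rise of any metabolic enzyme that was detected in a late growth library. DIO3 is the deiodinase that inactivates thyroid hormone. For DIO3 the libraries gave 297 and 304 TPM in resting and 0.311 and 0 TPM in late growth libraries (log2 fold change 8.04 ± 0.28, adjusted p = 1.17e-05). DIO2, the deiodinase that activates it, rose as well. DIO2 had 12.7 and 11.3 TPM in the resting phase, against 1.46 and 1.73 TPM in the late growth phase (log2 fold change 2.32 ± 0.30, adjusted p = 0.00136). Together with THRB this gave higher levels of a receptor and of both deiodinases. HSD17B11, a short-chain dehydrogenase of steroids and lipids, had 133 and 141 TPM in resting papilla ectoderm, against 33.8 and 34 TPM in late growth (log2 fold change 1.98 ± 0.25, adjusted p = 0.00136). BCO1, which cleaves carotene to retinal, and CYP26B1, which degrades retinoic acid, rose. For BCO1 the libraries gave 11.2 and 13.8 TPM in the resting phase, against 0.218 and 0.333 TPM in the late growth phase (log2 fold change 3.40 ± 0.40, adjusted p = 9.45e-04). CYP26B1 had 60.3 and 49.8 TPM in resting papilla ectoderm, against 24.5 and 23.9 TPM in late growth (log2 fold change 1.15 ± 0.14, adjusted p = 0.00103). CKB, brain-type creatine kinase, and AK1, adenylate kinase, which buffer ATP and are abundant in contractile tissue, rose beside the muscle markers. CKB stood at 1465 and 1478 TPM in resting and 198 and 202 TPM in late growth libraries (log2 fold change 2.87 ± 0.073, adjusted p = 4.27e-06). The level of AK1 was 73.6 and 81.7 TPM in the resting phase, against 0.721 and 0 TPM in the late growth phase (log2 fold change 5.90 ± 0.30, adjusted p = 4.17e-05).

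**Figure D4:**
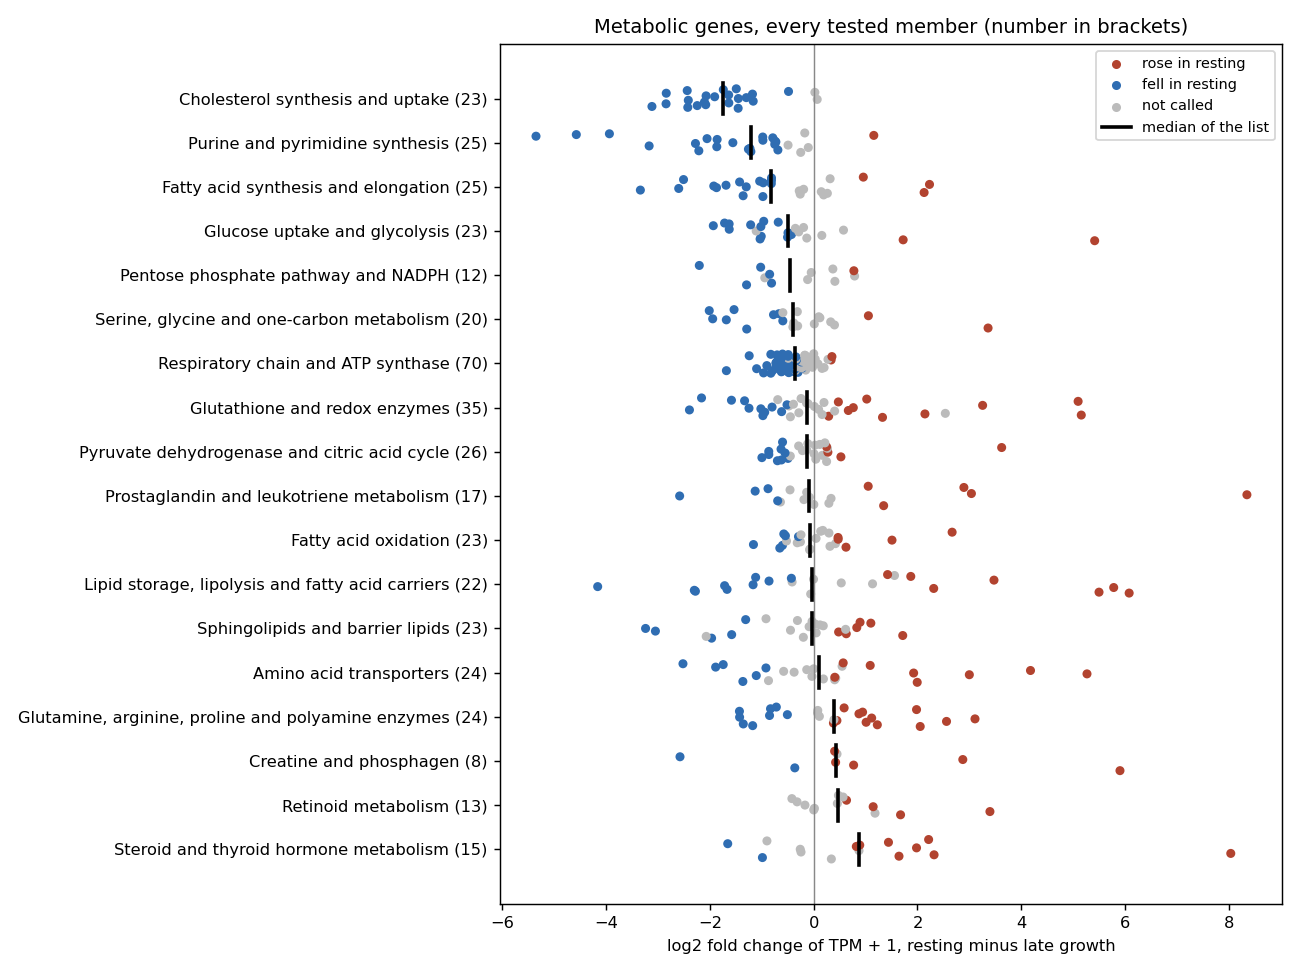
Log2 fold change (resting minus late growth, log2(TPM + 1) scale) of every tested member of the 18 metabolic lists. Red points rose, blue points fell and grey points were not called, and black bars mark the median of a list, from −1.74 for cholesterol synthesis and uptake to 0.87 for steroid and thyroid hormone metabolism.

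Of 17 tested alpha-keratins 9 fell, KRT15 rose and 7 did not pass. Falls were 52.9% of the list, beside 23.1% of all tested genes. In place of 1, 2 rose without a filter on low values or on TPM rescaled without muscle and red cell genes. KRT71, in mammals a keratin of the inner root sheath, and KRT75L1, a relative of the companion layer keratin whose chicken paralogue shapes the rachis, had large falls. For KRT71 the libraries gave 26.7 and 27.3 TPM in resting papilla ectoderm, against 797 and 876 TPM in late growth (log2 fold change −4.90 ± 0.22, adjusted p = 2.64e-05). KRT75L1 had 80.6 and 70 TPM in resting and 1139 and 1212 TPM in late growth libraries (log2 fold change −3.95 ± 0.19, adjusted p = 3.39e-05). KRT75L4 had 1.18 and 0.569 TPM in the resting phase, against 23.3 and 26.5 TPM in the late growth phase (log2 fold change −3.81 ± 0.27, adjusted p = 1.36e-04). The KRT75-like genes are close copies, so short reads may have been divided among them unevenly. KRT5, the keratin of basal cells, fell by a small amount and stayed among the highest levels of any epithelial gene. For KRT5 the libraries gave 2959 and 3032 TPM in resting and 3962 and 4126 TPM in late growth libraries (log2 fold change −0.43 ± 0.061, adjusted p = 0.00208). That call was lost when genes with low values were kept in the fit (adjusted p = 0.111). The feather beta-keratins gave only 1 tested gene, F-KER, with 7.68 and 15.3 TPM in the resting phase, against 22.5 and 21 TPM in the late growth phase (log2 fold change −0.94 ± 0.34, adjusted p = 0.0679), and it passed without the second resting library (adjusted p = 0.0364) and after quantile normalization (0.0372).

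The epidermal differentiation complex, a cluster of genes for cornified envelope proteins that in birds also serves feather and scale, fell in 16 of 19 tested members and had the lowest median of any epithelial list, −2.64. Falls were 84.2% of the tested members of the complex, beside 23.1% of all tested genes. EDPE, a protein rich in proline and glutamate, was among the larger falls. The level of EDPE was 1.8 and 0.546 TPM in resting and 155 and 125 TPM in late growth libraries (log2 fold change −6.07 ± 0.33, adjusted p = 5.19e-05). EDCH1, EDCH2, EDCH3 and EDWM were listed at 0 in both resting libraries. In late growth EDCH1 had 13.6 and 5.42 TPM, EDCH2 15.5 and 10.5 TPM, EDCH3 15.5 and 10.6 TPM and EDWM 6.5 and 6.66 TPM. The EDCH genes are similar to each other, so reads may not have been told apart among them. S100A11, which lies at the edge of the cluster, was its most abundant member and fell. For S100A11 the libraries gave 609 and 624 TPM in resting papilla ectoderm, against 1339.8 and 1237 TPM in late growth (log2 fold change −1.06 ± 0.073, adjusted p = 1.23e-04). EDMTFH rose and EDMTF4 and LOR3 did not pass. With a filter at a mean of 5 TPM 7 members fell in place of 16 and none rose. Members at 0 in resting libraries, such as the EDCH genes, passed the filter only through libraries in which they were high, so the count and the median describe the members that passed and no more. The EDMTFH rise was not called without either late growth library or the first resting library.

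S100 calcium-binding proteins divided among themselves. S100A14, an S100 protein of epithelia, and S100A16, which many tissues express, fell, and S100A10, the partner of annexin A2, rose. S100A14 had 72.7 and 86.8 TPM in resting and 467 and 477 TPM in late growth libraries (log2 fold change −2.56 ± 0.10, adjusted p = 1.91e-05). S100A16 stood at 125 and 122 TPM in the resting phase, against 469 and 447 TPM in the late growth phase (log2 fold change −1.89 ± 0.088, adjusted p = 3.16e-05). The level of S100A10 was 977 and 973 TPM in resting papilla ectoderm, against 99.3 and 107 TPM in late growth (log2 fold change 3.23 ± 0.10, adjusted p = 1.00e-05). S100A6 was the most abundant of them and did not pass on deposited TPM, at 3966 and 3938 TPM in resting and 3543 and 3278 TPM in late growth libraries (log2 fold change 0.21 ± 0.091, adjusted p = 0.102). It passed without the first early growth library (adjusted p = 0.0279) and without the second (0.0291), after quantile normalization (0.00696) and after rescaling without muscle and red cell genes (0.0143).

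Cell junctions changed part by part. Of 11 tested desmosomal genes 7 fell and 3 rose. Falls were 63.6%, beside 23.1% of all tested genes, and rises, 27.3%, lay near the 24.7% of all. The largest change was a rise, in PPL. With a log2 fold change above 1 in size, 2 rose and only 1, PKP2, fell. PKP2 and DSC1 fell, and JUP, plakoglobin, which is shared with adherens junctions, fell too. PKP2 stood at 2.52 and 3.38 TPM in resting papilla ectoderm, against 10.3 and 10.7 TPM in late growth (log2 fold change −1.55 ± 0.21, adjusted p = 0.00159). The level of DSC1 was 147 and 148 TPM in resting and 239 and 263 TPM in late growth libraries (log2 fold change −0.76 ± 0.083, adjusted p = 7.24e-04). For JUP the libraries gave 385 and 404 TPM in the resting phase, against 595 and 579 TPM in the late growth phase (log2 fold change −0.57 ± 0.059, adjusted p = 5.83e-04). The cadherins of the epidermis fell by about the same amount as each other. CDH1 had 76 and 87.8 TPM in resting papilla ectoderm, against 175 and 175 TPM in late growth (log2 fold change −1.09 ± 0.092, adjusted p = 2.57e-04). CDH3 stood at 83.4 and 77.8 TPM in resting and 173 and 161 TPM in late growth libraries (log2 fold change −1.04 ± 0.080, adjusted p = 1.83e-04). NECTIN3, an adhesion receptor, and VCL, vinculin, which ties adhesions to actin and is high in muscle, were the 2 adherens junction genes that rose. The level of NECTIN3 was 8.7 and 10.2 TPM in the resting phase, against 0.698 and 0.506 TPM in the late growth phase (log2 fold change 2.71 ± 0.31, adjusted p = 8.91e-04). For VCL the libraries gave 249 and 276 TPM in resting papilla ectoderm, against 103 and 125 TPM in late growth (log2 fold change 1.20 ± 0.12, adjusted p = 4.49e-04). Of the 9 tested adherens junction genes 6 fell and 2 rose. Falls were 66.7%, beside 23.1% of all tested genes, and rises, 22.2%, lay near the 24.7% of all. Only 3 fell on TPM rescaled without muscle and red cell genes, and fewer fell without the first resting library.

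GJA1 (connexin 43), the main gap junction channel of growing epidermis, had a narrow spread and a large fall. GJA1 had 250.0 and 253 TPM in resting and 1902 and 1972 TPM in late growth libraries (log2 fold change −2.94 ± 0.054, adjusted p = 1.92e-06). GJC1 (connexin 45), a connexin of vascular smooth muscle, rose. GJC1 stood at 22.3 and 22.2 TPM in the resting phase, against 1.25 and 1.22 TPM in the late growth phase (log2 fold change 3.38 ± 0.50, adjusted p = 0.00243). It was 1 of 5 connexins that rose among 9 tested, and GJA1 was the 1 that fell. Rises were 55.6% and falls 11.1% of the list, beside 24.7% and 23.1% of all tested genes. Only 3 connexins rose without either late growth library or the first resting library, and 2 fell without the second resting library. Keeping genes with low values in the fit gave 3 rises and 2 falls. In tight junctions ILDR1, a protein of tricellular contacts, and CLDN4, a sealing claudin, fell. The level of ILDR1 was 1.39 and 0.976 TPM in resting papilla ectoderm, against 8.29 and 8.81 TPM in late growth (log2 fold change −2.13 ± 0.28, adjusted p = 0.00161). For CLDN4 the libraries gave 0.602 and 0.561 TPM in resting and 5.35 and 4.65 TPM in late growth libraries (log2 fold change −1.92 ± 0.30, adjusted p = 0.00298). The 4 rises among 18 tested tight junction genes rested on single libraries, since at most 1 was left when any 1 of the 4 libraries was left out, none without the filter on low values and 1 after quantile normalization or with the replicate block. Falls, 5 in all, were 2 with a filter at 5 TPM and 8 after quantile normalization. Those 4 rises and 5 falls made up 22.2% and 27.8% of the list, near the 24.7% and 23.1% of all tested genes.

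Genes of attachment to the basement membrane had 7 rises and 5 falls among 18 tested. Rises made up 38.9% of the list, beside 24.7% of all tested genes. The share of falls, 27.8%, lay near the 23.1% of all. COL17A1, the most abundant member, had the largest change among called members, and its values are not reported here. Summed TPM of this list were higher in resting, at 3505 and 3554, against 1957 and 2163 in late growth. DST, whose epithelial isoform BPAG1 anchors keratins at hemidesmosomes, rose and COL7A1, the anchoring fibril collagen, fell. DST had 226 and 247 TPM in the resting phase, against 95.6 and 116 TPM in the late growth phase (log2 fold change 1.16 ± 0.12, adjusted p = 6.54e-04). COL7A1 stood at 16 and 14.4 TPM in resting papilla ectoderm, against 38.9 and 36.6 TPM in late growth (log2 fold change −1.26 ± 0.12, adjusted p = 3.69e-04). Without the second late growth library 3 genes of this list fell. Among genes that mark epithelia in general, 12 of 15 tested fell and none rose. Falls were 80% of that list. LAD1, ladinin, a filament-linked protein of the basement membrane zone, had the largest fall. The level of LAD1 was 3.96 and 3.77 TPM in resting and 95.7 and 104 TPM in late growth libraries (log2 fold change −4.37 ± 0.14, adjusted p = 1.00e-05). EPCAM, an epithelial adhesion molecule, and MAL2, a protein of apical transport, fell with it. The membrane protease ST14 (matriptase), named from the list of cornification enzymes and barrier proteases, fell too. For EPCAM the libraries gave 184 and 184 TPM in the resting phase, against 517 and 511 TPM in the late growth phase (log2 fold change −1.48 ± 0.071, adjusted p = 3.42e-05). MAL2 had 6.95 and 6.76 TPM in resting papilla ectoderm, against 24.4 and 27.9 TPM in late growth (log2 fold change −1.78 ± 0.26, adjusted p = 0.00235). ST14 stood at 13.9 and 18.9 TPM in resting and 42.2 and 44.8 TPM in late growth libraries (log2 fold change −1.37 ± 0.18, adjusted p = 0.00157). Leaving out the first resting library brought this count to 7 falls, and leaving out any other of the 4 libraries brought it to 8, with none higher each time. With no filter on low values 7 fell. The list that named ST14, of cornification enzymes and barrier proteases, had 4 rises and 3 falls among 9 tested genes. These were 44.4% and 33.3% of the list, beside 24.7% and 23.1% of all tested genes. Only 1 gene of that list rose without the filter on low values. Leaving out any 1 of the 4 libraries also gave fewer rises, so these rises rested on single libraries.

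Of 18 tested genes that are used as markers of hair follicle stem cells in mammals, 7 rose and 6 fell, with a median of 0.05. These were 38.9% and 33.3% of the list, beside 24.7% and 23.1% of all tested genes. TNC, a matrix glycoprotein of the bulge, NCAM1, an adhesion molecule of the papilla and feather buds, CD34, which also marks endothelium and fibroblasts, and ALCAM rose. KRT15, the most abundant member, rose as well. Summed TPM of the list were 2250 and 2263 in resting and 866.7 and 942.8 in late growth libraries. The level of TNC was 128.6 and 127 TPM in the resting phase, against 4.6 and 4.89 TPM in the late growth phase (log2 fold change 4.49 ± 0.23, adjusted p = 4.06e-05). For NCAM1 the libraries gave 48.8 and 47.5 TPM in resting papilla ectoderm, against 3.59 and 5.38 TPM in late growth (log2 fold change 3.18 ± 0.27, adjusted p = 2.48e-04). CD34 had 20.2 and 15.9 TPM in resting and 2.2 and 1.19 TPM in late growth libraries (log2 fold change 2.84 ± 0.27, adjusted p = 4.06e-04). ALCAM had 8.69 and 14.1 TPM in the resting phase, against 0.408 and 0.598 TPM in the late growth phase (log2 fold change 3.01 ± 0.38, adjusted p = 0.00131). LGR5 and LGR6, R-spondin receptors of cycling stem cells, fell together with SOX9. For LGR5 the libraries gave 8.82 and 11.7 TPM in resting and 25.8 and 29.7 TPM in late growth libraries (log2 fold change −1.36 ± 0.19, adjusted p = 0.00192). LGR6 had 35.3 and 37.9 TPM in the resting phase, against 90.3 and 91.9 TPM in the late growth phase (log2 fold change −1.29 ± 0.088, adjusted p = 1.18e-04). The list was therefore divided by gene. TGM2, the most abundant transglutaminase, had 952 and 910.1 TPM in resting papilla ectoderm, against 994 and 930.5 TPM in late growth and did not pass (log2 fold change −0.05 ± 0.063, adjusted p = 0.573), but passed after quantile normalization (adjusted p = 0.0460).

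**Figure D5:**
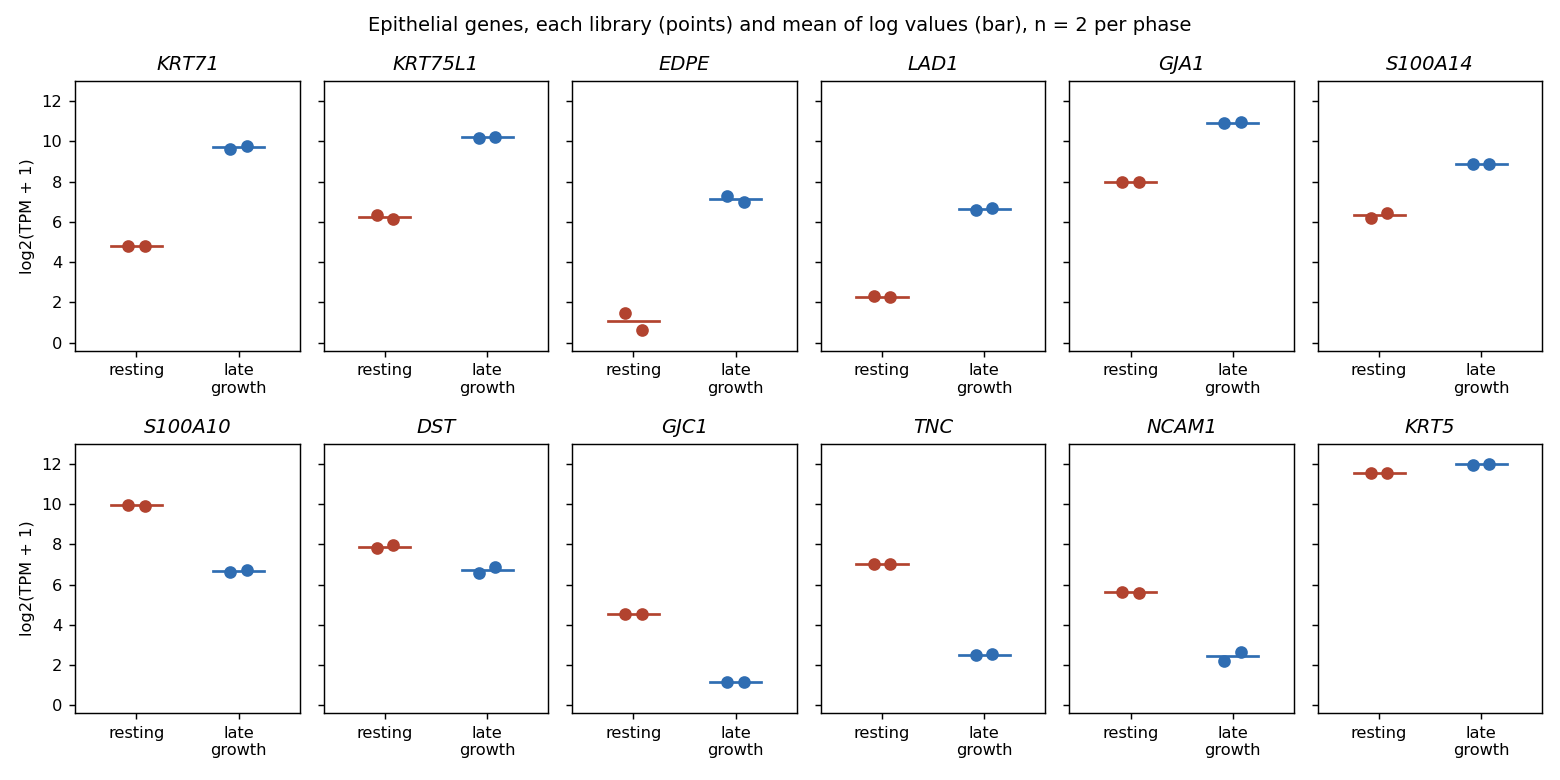
Levels of 12 genes of the epithelial class as log2(TPM + 1) in the 2 resting libraries (left in each panel) and the 2 late growth libraries (right). The class is not limited to epithelium, and GJC1 is a connexin of vascular smooth muscle. Points are libraries and bars are means of the log values. The upper row fell in resting (GJA1, 250.0 and 253 TPM against 1902 and 1972 TPM), and of the lower row all rose except KRT5 (2959 and 3032 TPM against 3962 and 4126 TPM), which fell.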

How the data were processed

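The authors made the TPM of each library with StringTie, run with its defaults on the chicken build GRCg6a, per the labels and the study's methods. The aligner was not given in the sources used here. Libraries were made with a TruSeq kit and read as short single reads. The deposited TPM (23724 genes, 1 column per library, sums of 989472 to 998451) were used unchanged. Read numbers are unknown, and precision was judged from how far the 2 libraries of each phase lay apart.

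TPM were transformed as log2(TPM + 1), so that fold changes of low genes are understated. limma 3.58.1 (R 4.3.3) fitted 3 phase means with a variance trend to the 13063 genes averaging more than 1 TPM across 6 libraries, at 3.01 prior degrees of freedom. Every adjusted p value is from limma with Benjamini-Hochberg adjustment over the tested genes. An SE is that of the log2 fold change. The fit was also run on simulated data with 200 changed genes, far fewer than were called here. That run therefore cannot give the share of false calls in these data. Gene lists were matched by the symbols as deposited, without synonyms, and members and lists were chosen with earlier results of these data known. Named genes were taken, per list, from up to 5 called members with the largest change, the most abundant member, and members listed at 0 in both libraries of 1 phase and above 5 TPM in the other. A few genes that this rule names are not reported here. Chosen after their values were seen were SOX9, PPARG, LGR5, LGR6, RRM2B and the genes outside the lists. Alternatives covered pseudocount, filter, scaling, the libraries in the fit, robust moderation, a replicate block and thresholds.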

Additional observations from a re-analysis of the deposited data

How the results depend on the processing

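Over all tested genes 3228 rose and 3013 fell, and leaving out 1 library gave 2047 to 3864 rises and 1873 to 3536 falls. With an adjusted p under 0.01 and a log2 fold change above 2 in size, 1083 rose and 478 fell. With an adjusted p under 0.05 and a change above 1 in size, 2341 rose and 1454 fell. Falls of secreted factors ranged from 23 to 45 with 1 library left out. Of 164 alternative counts over all genes and the 4 classes, 156 stayed within 1.5 times the count given above. Of 190 named genes, 9 crossed the threshold under at least 1 of the 16 alternatives run on single genes, and none changed sign while called. Calls of FGFBP2, FGF18, IGFBP5 and KRT5 were lost under some, and KLF5, BMP7, F-KER, S100A6 and TGM2 passed under some. Counts of several lists moved with the filter on low values or with libraries left out, as given beside them. Deviations of same-numbered libraries correlated at −0.029 to 0.015 over genes, so no pairing by replicate number was apparent. With 2 libraries a phase these values cannot show that the libraries are unpaired. With the replicate block 2968 genes rose and 2789 fell, and within the classes 141 and 70 transcription factors, 104 and 37 secreted factors, 80 and 183 metabolic genes and 31 and 66 epithelial genes. The cause of these shifts was not tested. TPM without read counts set no detection limit for genes listed at 0.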

Other observations

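Genes outside every list were read after their values were seen, and are given as values without a test of any group. KRTC42L, a keratin-like gene by its symbol, had 23 and 26.7 TPM in the resting phase, against 2334 and 2464 TPM in the late growth phase (log2 fold change −6.54 ± 0.53, adjusted p = 2.25e-04). NEU2, a sialidase, had 1.92 and 5.03 TPM in resting and 115 and 108 TPM in late growth libraries (log2 fold change −4.74 ± 0.35, adjusted p = 1.51e-04), and RASL11B, a small RAS-like GTPase, had 4.26 and 7.2 TPM in resting papilla ectoderm, against 86.1 and 99 TPM in late growth (log2 fold change −3.83 ± 0.23, adjusted p = 8.26e-05). All 3 fell. SOCS3, the feedback inhibitor of STAT3 signalling, rose. SOCS3 stood at 219 and 227 TPM in the resting phase, against 2.93 and 3.26 TPM in the late growth phase (log2 fold change 5.78 ± 0.20, adjusted p = 1.22e-05). GPNMB, a glycoprotein of macrophages and pigment cells, rose by a similar factor. The level of GPNMB was 428 and 412 TPM in resting papilla ectoderm, against 9.01 and 9.13 TPM in late growth (log2 fold change 5.39 ± 0.11, adjusted p = 2.62e-06). VSIG10L, an immunoglobulin domain protein of stratified epithelium, had 148 and 144 TPM in resting and 3.14 and 3.09 TPM in late growth libraries (log2 fold change 5.16 ± 0.13, adjusted p = 4.27e-06). SOCS3 and GPNMB were also low in early growth libraries, at 4.71 and 6.82 TPM for SOCS3 and 10.8 and 10.3 TPM for GPNMB, so that only the resting libraries were high.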
